A study of Homo sapiens with 4 samples.

Results

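EGT pulses, named after electrogene therapy, are long electric pulses of low field strength that open the cell membrane and drive charged DNA into the cell. The cells examined were SK-MEL28, an established human melanoma line. They received 8 EGT pulses of 5 ms at 600 V/cm and 1 Hz, and RNA was isolated 16 h later. Exposed cells were set against untreated SK-MEL28 cells on 2 two-colour arrays, EGT 1 and EGT 2, out of 4 arrays in the series. The other 2 arrays, ECT 1 and ECT 2, held cells given 8 short pulses of 100 μs at 1300 V/cm, the kind used in electrochemotherapy, against untreated cells. On every array Cy5 marked the exposed and Cy3 the untreated RNA, so a dye effect of an oligonucleotide and a response to the pulses cannot be told apart. The source labels of both EGT arrays and of ECT array 2 add cisplatin, which the study's text does not name for these cells. If these cells were given the drug, its effect and that of the pulses cannot be told apart in any EGT ratio below. Separate cultures are stated for neither pair of arrays, so the spread between them may be technical only.

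An electric pulse of this kind makes the plasma membrane permeable for seconds to minutes. Ions and small molecules then cross it, and cells spend energy on resealing and on restoring their ion balance. Heat shock proteins, cell cycle regulators, ribosomal proteins, redox enzymes, DNA damage genes and genes of calcium handling and of the cytoskeleton are those usually followed after such stress. The array carried a selection of cancer-related genes, and these groups could be examined on it by their members.

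Each array held 3048 oligonucleotides in 12788 spots. Most of them (2900) had 4 spots, and a gene symbol was given for 1989. On EGT array 1, 4 spots with a local background over 1000 were left out. After spots that were dim, noisy or saturated had been removed, EGT array 1 retained 43.2% of its spots and EGT array 2 47.7%. Of the 3048 oligonucleotides, 1327 were measured on both EGT arrays, covering 1092 genes, and 1164 of them also on both ECT arrays. Median signal over background in exposed cells was 1.69 and 2.20 on EGT arrays 1 and 2, and in untreated cells it was 3.36 and 3.07. Values below are log2 ratios of exposed over untreated cells after loess within each array, as the median of the kept spots, and 1.5-fold corresponds to 0.58. The SD between the 2 EGT arrays averaged 0.14 over the oligonucleotides. All 7 melanocyte lineage markers on the array, TYRP1, TYR, MLANA, MITF, SOX10, S100B and CD63, were above background in both channels on both arrays. Markers of other cell types gave signal as well, as described below.

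Cells exposed to EGT pulses showed small differences from untreated cells, led by higher CDC25C and CCNF, a pair of regulators of the G2 phase and mitosis, and by lower RET, a receptor tyrosine kinase, and RPL31, which belongs to the large ribosomal subunit. In all, 8 of 1327 oligonucleotides (0.603%) were at least 1.5-fold away from untreated cells in the same direction on both EGT arrays. Of these, 2 (0.151%) were higher, CCNF and CDC25C, and 6 (0.452%) were lower, RET, RPL31, RPL38, TIMP2, CDK2AP2 and WWP1. A mean of at least 2-fold was reached by 2 oligonucleotides (0.151%), those of RET and RPL31. By their means, 46.9% of the 1327 oligonucleotides were above 0 and 53.1% below. Between the arrays, 64.9% had the same sign, with 398 above 0 on both (30%) and 463 below 0 on both (34.9%).

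No oligonucleotide passed an adjusted p of 0.05 in limma with Benjamini-Hochberg adjustment (0 of 1327, 0%), and the smallest adjusted p was 0.213. The spread in this fit was shared by both pulse types, so each p for EGT also rests on the ECT arrays. Those ECT arrays differ in the cisplatin label. At an unadjusted p under 0.05 there were 208 (15.7%), of which 85 (6.41%) were higher and 123 (9.27%) lower in exposed cells. Both counts depended on the normalization. Centring each array on its median in place of loess gave 92 oligonucleotides past the adjusted threshold, 5 higher and 87 lower, and 32 past the 1.5-fold rule, of which 0 were higher and 32 lower. The deposited table of normalized ratios gave 9 past the adjusted threshold, with CCNF, HSPA1B and CDC25C higher and CDK2AP2, RPL31, CD28, CYP2A7, PC and POLR2F lower. When the 4 spots of high background on EGT array 1 were kept, 2 oligonucleotides passed the 1.5-fold rule, those of TP53I3 and MUC4, and 0 of the 8 above did.

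**Figure D1:**
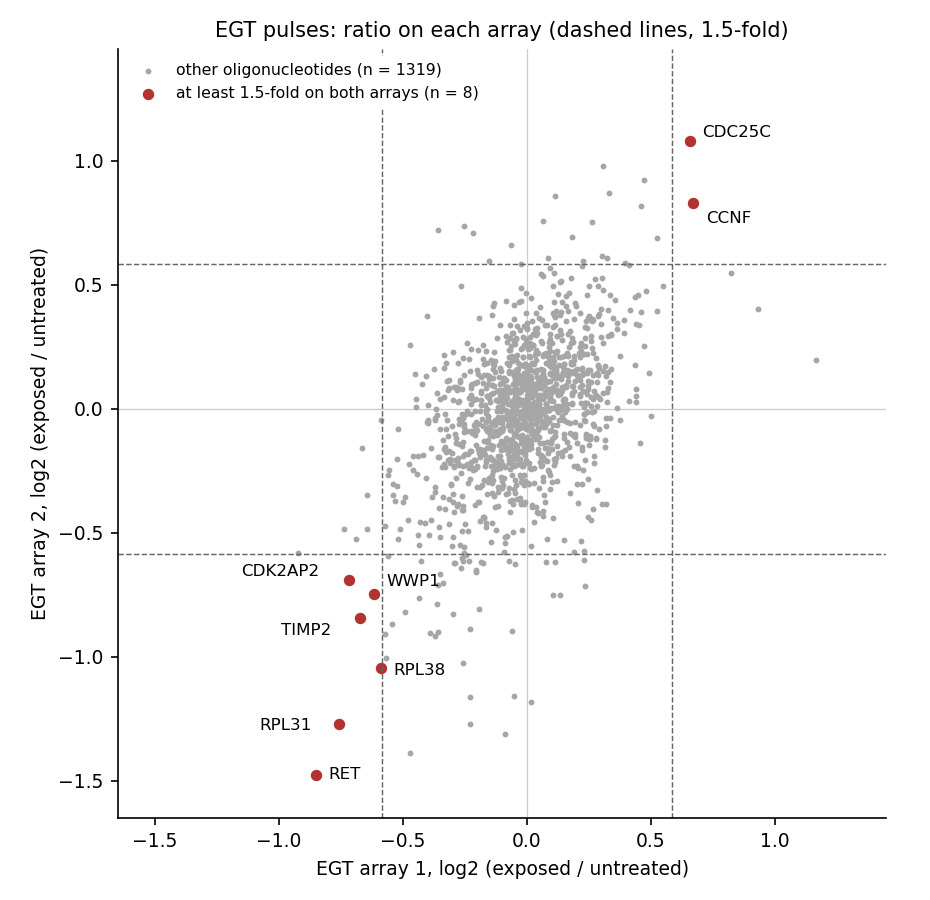
Log2 ratio of exposed over untreated cells on EGT array 1 (x axis) and EGT array 2 (y axis) for 1327 oligonucleotides, with the 8 that were at least 1.5-fold the same way on both arrays in red. CDC25C and CCNF lie beyond both dashed lines at the upper right, and the other 6 at the lower left, while EGT array 2 has more single values past 1.5-fold than EGT array 1.

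CDC25C, the phosphatase that activates the mitotic kinase CDK1, had spot intensities of 637.5 and 711.5 in exposed cells on EGT arrays 1 and 2 (VM_H300022393). In untreated cells on the same arrays it had 930 and 422.5, before correction for the dyes. Its log2 ratios after loess were 0.66 and 1.08, with a mean of 0.87 ± 0.30 (SD, n = 2) or 1.82-fold higher (limma adjusted p = 0.225). Both arrays were above 1.5-fold, and EGT array 2 was the higher. The 4 spots ranged between -0.02 and 0.87 on EGT array 1 and between 0.30 and 1.12 on EGT array 2, so the lowest spot of the first array showed no difference.

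CCNF encodes cyclin F, the substrate adaptor of a ubiquitin ligase that acts in G2. Its oligonucleotide (VM_H200000503) had intensities of 503 and 670.5 in exposed cells, against 719 and 463 in untreated cells. The ratios were 0.67 and 0.83, close to each other, with a mean of 0.75 ± 0.11 (SD, n = 2) or 1.68-fold higher (limma adjusted p = 0.213). All 4 spots were above 0 on each array.

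Of the 16 measured oligonucleotides in the list of G2/M and mitosis genes, 3 were higher and 1 was lower at an unadjusted p under 0.05, against 6.41% and 9.27% of all 1327. The median was 0.05, against -0.01 over all. Besides CCNF and CDC25C, TOP2A, the topoisomerase that untangles chromosomes, was at 0.33 and 0.46 (limma adjusted p = 0.256). AURKB, a kinase of the chromosomal passenger complex, differed between the arrays, at 0.06 and 0.76. CKS2, a small subunit of cyclin-dependent kinases, was below 0 on both arrays, at -0.30 and -0.52 (limma adjusted p = 0.257). CCNB1 at -0.10 and CDK1 at 0.17, the partners of the complex that CDC25C activates, and PLK1 at -0.17 had mean ratios within 1.5-fold. The list thus held both directions, with its pair of largest members standing apart.

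Promoters of many genes of late cell cycle phases carry the element TTTGAA, called CHR, and upstream CCAAT boxes. In RefSeq windows of 250 bases before each start site, TTTGAA on either strand stood in at least 1 window of 4383 of 27305 genes (16.1%). Of the 12 measured G2/M genes with a window it stood in 7 (58.3%), CCNB2, CCNF, CDC25C, CDK1, CKS2, PLK1 and TOP2A, some of which were above 0 and some below. CCAAT, searched likewise, stood in 12 of the 12, against 37.0% of all genes and 45.7% of the genes measured on both EGT arrays. For TTTGAA the share of those measured genes was 14.9%. For CDC25C, 1 of its 4 windows held TTTGAA. The window of CCNF is printed because CCNF was the member with the smallest spread among the higher 2, with the CHR in capitals at positions -85 to -80 from the start (GRCh38.p14, plus strand, chr16:2429197-2429446). That match overlaps none of the CCAAT matches of the window.
CCNF: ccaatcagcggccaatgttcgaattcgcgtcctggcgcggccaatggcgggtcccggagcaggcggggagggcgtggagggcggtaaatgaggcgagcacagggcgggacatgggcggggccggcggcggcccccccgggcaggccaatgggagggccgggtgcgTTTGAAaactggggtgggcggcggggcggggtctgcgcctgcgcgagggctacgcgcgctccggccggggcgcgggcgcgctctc

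RET, the receptor for ligands of the GDNF family, had the largest mean difference of the 1327 oligonucleotides (VM_H300021016). Its intensities were 222.5 and 108.5 in exposed cells, against 966.5 and 502.5 in untreated cells. The ratios were -0.85 and -1.48, a mean of -1.16 ± 0.44 (SD, n = 2) or 2.24-fold lower (limma adjusted p = 0.245). The highest of its spots stood at -0.53 on EGT array 1 and at -1.26 on EGT array 2, so all were lower in exposed cells. Of 17 measured oligonucleotides of receptor tyrosine kinases, 6 were lower and 0 were higher at an unadjusted p under 0.05, against 9.27% and 6.41% of all oligonucleotides. The list's median was -0.04, and -0.24 with median centring. ERBB3, the kinase-impaired partner of ERBB2, was at -0.29 and -0.62, and DDR1, a collagen receptor, at -0.37 and -0.32. MERTK, a receptor for GAS6, was at -0.34 and -0.36. NTRK2, the BDNF receptor, was at -0.25 and -0.59 by 1 oligonucleotide (VM_H300020389) and at 0.14 and 0.09 by another (VM_H300022491), so its probes disagreed.

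RPL31 (VM_H200014243) had intensities of 116 and 64 in exposed cells, against 433.5 and 263 in untreated cells. Its ratios were -0.76 and -1.27, a mean of -1.01 ± 0.36 (SD, n = 2) or 2.02-fold lower (limma adjusted p = 0.225). Its spots ranged between -0.84 and 0.08 on EGT array 1, and with the mean of spots in place of their median it did not pass the 1.5-fold rule. RPL38 (VM_H200000517), another protein of the large subunit, was at -0.59 and -1.05, with intensities of 547 and 364.5 in exposed cells against 1835 and 1034 in untreated cells. RPL38 lay at the edge of the rule on EGT array 1, where its spots ranged between -0.81 and 0.44 (limma adjusted p = 0.269).

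Ribosomal proteins build the small and large subunits on which proteins are made, and 7 of their 8 measured oligonucleotides were below 0 on both EGT arrays, against 34.9% of all oligonucleotides. At an unadjusted p under 0.05, 4 were lower and 1 was higher, against 9.27% and 6.41% of all oligonucleotides. The median was -0.51, and it lay between -0.75 and -0.43 under the other normalizations and filters tried. It was -0.20 on EGT array 1 alone and -0.75 on EGT array 2 alone. RPS6, the small subunit protein phosphorylated downstream of mTOR, was at -0.34 and -0.70, and RPS3 at -0.18 and -0.62. RPL7 was at -0.19 and -0.81 by 1 oligonucleotide and at -0.21 and -0.65 by the other. RPL32 was at -0.09 and -1.31, the largest gap between the arrays of any oligonucleotide measured. RPS19 alone was above 0, at 0.46 and 0.39 (limma adjusted p = 0.245). EGT array 2 was the lower of the 2 arrays for every member of the list. Ribosomal protein genes have many near-identical pseudogenes, and how far each oligonucleotide distinguishes them was not tested.

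**Figure D2:**
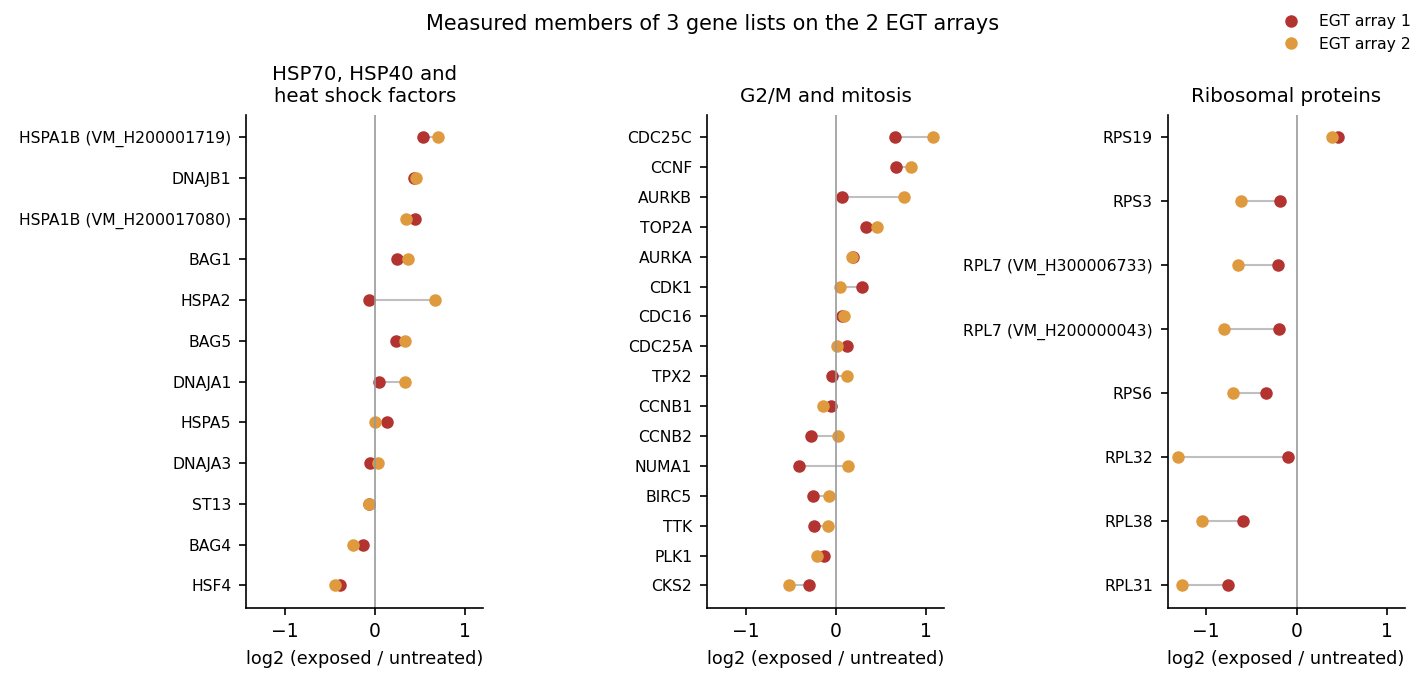
Log2 ratio of exposed over untreated cells for every measured oligonucleotide of 3 gene lists, on EGT array 1 (dark red) and EGT array 2 (orange), joined by a line. HSPA1B and DNAJB1 are near each other on both arrays, CDC25C and CCNF stand at the top of the G2/M list, and 7 of the 8 ribosomal oligonucleotides are below 0 on both arrays with EGT array 2 lower.

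TIMP2, an inhibitor of matrix metalloproteinases, was at -0.67 and -0.84, a mean of -0.76 ± 0.12 (SD, n = 2; VM_H200019139). Its intensities were 137.5 and 139.5 in exposed cells, against 518 and 360.5 in untreated cells (limma adjusted p = 0.225). Among 34 measured oligonucleotides for adhesion, matrix and metalloproteinase genes, 3 were higher and 5 lower at an unadjusted p under 0.05. Over all oligonucleotides the shares were 6.41% and 9.27%. The list's median was -0.03. ITGB4, the integrin subunit of hemidesmosomes, was at -0.36 and -0.90 and ITGAX, a leukocyte integrin subunit, at -0.74 and -0.48. MUC4, a membrane mucin, was at -0.56 and -0.59 by 1 oligonucleotide and at -0.10 and -0.29 by another. Of those above 0, the laminin receptor subunit ITGA7 was at 0.25 and 0.49.

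CDK2AP2, a relative of the CDK2-binding protein CDK2AP1, had the closest arrays of the 8, at -0.72 and -0.69 (mean -0.70 ± 0.02 SD, n = 2; VM_H300004591). Its intensities were 297.5 and 319 in exposed cells, against 1119.5 and 716 in untreated cells, and its adjusted p was 0.213 in limma. The other 18 measured oligonucleotides of the G1/S list lay nearer to 0. CDKN3, a phosphatase of CDK2, was at -0.36 and -0.40, SKP2, the substrate receptor for p27, at -0.43 and -0.46, and CCND1, the D-type cyclin, at -0.15 and 0.60. The list's median was 0.01.

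WWP1, a HECT-type ubiquitin ligase, was at -0.62 and -0.75 (mean -0.68 ± 0.09 SD, n = 2; VM_H200019098), with intensities of 217.5 and 178.5 in exposed cells against 801.5 and 421 in untreated cells. Its adjusted p in limma was 0.30, from a spread shared with the ECT arrays, whose SD was 0.77 for this oligonucleotide. Of 21 measured proteasome and ubiquitin oligonucleotides, 0 were higher and 2 lower at an unadjusted p under 0.05 (6.41% and 9.27% of all). The median was -0.01. PSMB7, a catalytic subunit of the proteasome, was at -0.37 and -0.34, whereas PSMB3 differed between the arrays, at 0.11 and -0.75.

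The members just inside the 1.5-fold rule were RPL38, WWP1 and CDC25C, whose nearer array stood at -0.59, -0.62 and 0.66. Just outside stood CD28 at -0.92 and -0.58, TP53I3 at -0.57 and -0.91, and CYP2A7 at -0.57 and -1.005. At a threshold of 1.4-fold 20 oligonucleotides passed and at 1.6-fold 3, those of CDK2AP2, RET and RPL31.

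**Figure D3:**
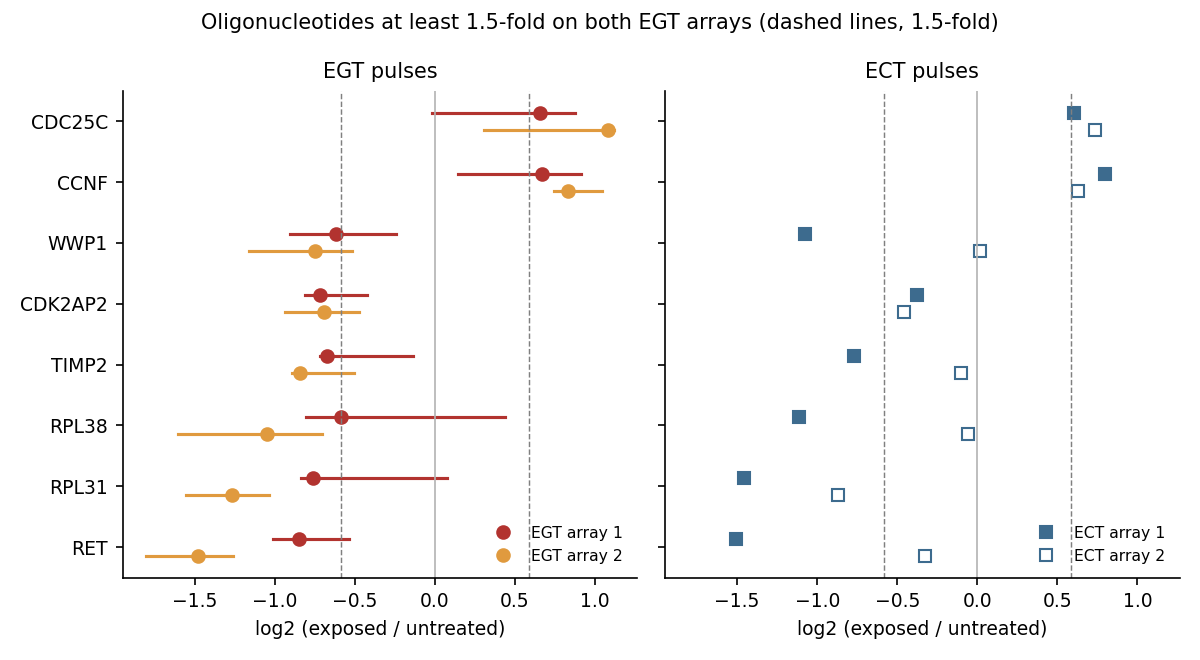
Log2 ratio of exposed over untreated cells for the 8 oligonucleotides at least 1.5-fold the same way on both EGT arrays, on the EGT arrays (left, circles, with lines between the lowest and the highest kept spot) and the ECT arrays (right, squares). On ECT array 2 the oligonucleotides of WWP1, TIMP2, RPL38, CDK2AP2 and RET lie within 1.5-fold of untreated cells, while CDC25C and CCNF are past 1.5-fold on all 4 arrays.

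HSP70 chaperones bind unfolded protein, HSP40 co-chaperones load them, and BAG proteins release the client. Of 12 measured oligonucleotides in this list, 5 were higher and 0 lower in exposed cells at an unadjusted p under 0.05, against 6.41% and 9.27% of all oligonucleotides. The median was 0.23, but 0.12 with median centring, and it was 0.09 on EGT array 1 alone and 0.33 on EGT array 2 alone. HSPA1B, a stress-induced HSP70, was at 0.52 and 0.69 by 1 oligonucleotide (VM_H200001719, mean 0.61 ± 0.12 SD, n = 2, limma adjusted p = 0.225). Its other oligonucleotide (VM_H200017080) was at 0.44 and 0.34. HSPA1A is nearly identical in sequence, so these values may hold both genes. DNAJB1, the inducible HSP40, was at 0.44 and 0.45, and the nucleotide exchange factors BAG1 and BAG5 were at 0.25 and 0.37 and at 0.23 and 0.33. HSPA2, the testis-enriched HSP70, was at -0.06 and 0.66. HSPA5, the HSP70 of the endoplasmic reticulum, was near 0, at 0.13 on EGT array 1 and a mean of 0.06. Its other oligonucleotide, VM_H300000330, was above background in untreated cells only, with a dim signal 1.12-fold lower in exposed cells. HSF4, a heat shock factor best known from the lens, was at -0.38 and -0.45 and BAG4 at -0.14 and -0.25. The inducible cytosolic members thus had the highest mean ratios of the list. In the main processing none of its members reached 1.5-fold on both arrays. In the deposited table HSPA1B (VM_H200001719) did, at 0.65 and 0.84. An HSPA1B oligonucleotide also passed with plain background subtraction, no background correction, a normexp offset of 0 and ratios scaled between arrays.

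The window of HSPA1B is printed for the heat shock element, the site of heat shock factors, searched as GAANNTTC on both strands. It stood in at least 1 window of 1924 of 27305 genes (7.05%), and of 6.24% of the genes measured on both EGT arrays. Of 9 measured genes of the list with a window, it stood in 3, DNAJA1, DNAJB1 and HSPA1B. For DNAJB1, 1 of its 3 windows held the element. In HSPA1B it lies at positions -105 to -98 from the start, in capitals (GRCh38.p14, plus strand, chr6:31827488-31827737).
HSPA1B: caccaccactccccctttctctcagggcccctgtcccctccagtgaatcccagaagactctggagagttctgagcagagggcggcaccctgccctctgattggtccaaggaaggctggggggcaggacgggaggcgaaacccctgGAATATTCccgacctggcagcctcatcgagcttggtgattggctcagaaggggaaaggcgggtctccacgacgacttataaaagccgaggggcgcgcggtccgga

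Other chaperones were mixed. Among 9 measured oligonucleotides of HSP90, small heat shock protein and chaperonin genes, 0 were higher and 1 lower at an unadjusted p under 0.05. The shares over all oligonucleotides were 6.41% and 9.27%. The list's median was 0.10, but -0.08 with median centring in place of loess. HSP90AB1, the constitutive cytosolic HSP90, was at 0.02 and 0.45, with a mean that turned to -0.02 with median centring, and SERPINH1, the collagen chaperone, at 0.05 and 0.41. TBCA, a tubulin-folding cofactor, was at -0.23 and -1.27 and PPIA, cyclophilin A, at -0.18 and -0.62, both lower on EGT array 2.

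Translation factors were mixed. TPT1, a growth-related tumour protein, was at -0.43 and -0.62, whereas EIF4G2, an initiation factor used in cap-independent translation, was at 0.11 and 0.86. The elongation factor EEF1A1 was at -0.67 and -0.16 by 1 oligonucleotide and at -0.36 and 0.72 by another (VM_H300022640), 1 of the 5 largest gaps between the arrays. The median of the 10 measured oligonucleotides was -0.02.

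In the RB and E2F list, which covers the pocket proteins that restrain entry into S phase and the E2F factors they bind, 4 of 14 measured oligonucleotides were higher and 0 lower at an unadjusted p under 0.05 (6.41% and 9.27% of all), with a median of 0.11. RBBP4, a histone-binding partner of RB, was at 0.18 and 0.69, E2F5, a repressive E2F, at 0.47 and 0.25, and the pocket protein RBL2 at 0.39 and 0.31. RB1 was at 0.29 and 0.38 by 1 oligonucleotide (VM_H200006192) and at 0.27 and 0.04 by the other. E2F1, an activating member, was at -0.14 and -0.30. With spots required to be 3 times above background the median was -0.0018, so the direction of this list depended on the filter.

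Of the measured redox and xenobiotic enzymes, which detoxify oxidants and foreign compounds, 12 of 16 were below 0, against 53.1% of all oligonucleotides. At an unadjusted p under 0.05, 5 were lower and 0 higher (9.27% and 6.41% of all), and the median of -0.10 became -0.25 with median centring. CYP2A7, a cytochrome P450 with near-identical relatives, was at -0.57 and -1.005 (mean -0.79 ± 0.31 SD, n = 2, limma adjusted p = 0.225). The glutathione transferases GSTP1, at -0.30 and -0.83, MGST3, at -0.35 and -0.67, and GSTM4, at -0.56 and -0.27, conjugate glutathione to electrophiles. SOD1, the cytosolic superoxide dismutase, was at -0.26 and -0.49. TXNRD1, which recycles thioredoxin, was at 0.04 and 0.30.

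In the p53 list of 10 measured oligonucleotides, 0 were higher and 3 lower at an unadjusted p under 0.05 (6.41% and 9.27% of all). The list's median was 0.01. TP53I3, a quinone oxidoreductase induced by p53, was at -0.57 and -0.91 by 1 oligonucleotide (VM_H300022581) and at -0.22 and -0.21 by the other (VM_H300018995), which stood at a mean of 0.0094 with median centring. TP73, a relative of p53, was at -0.41 and -0.28, and the p53-induced phosphatase PPM1D was at 0.11 and 0.15. Among 17 measured caspase and adaptor oligonucleotides, CASP9, the caspase of the apoptosome, was at -0.21 and -0.66, and BIRC2, an inhibitor of apoptosis, at 0.13 and 0.51. All 7 measured members of the BCL2 family had means between -0.12 and 0.10, though the list's median of 0.02 became 0.18 with median centring. Of 20 DNA repair and checkpoint oligonucleotides, 14 were above 0, against 46.9% of all oligonucleotides, and 6 below, with a median of 0.04. ERCC4, an excision repair nuclease subunit, was at 0.18 and 0.53, and RPA3, the small subunit of replication protein A, at -0.39 and -0.90.

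Genes of calcium handling and membrane repair had a median of 0.06 over 14 measured oligonucleotides. At an unadjusted p under 0.05, 1 was higher and 1 lower, against 6.41% and 9.27% of all oligonucleotides. CAMK1, a calcium-dependent kinase, was at 0.19 and 0.43, CANX, a chaperone of the endoplasmic reticulum, at 0.27 and 0.22, and S100B, a calcium-binding protein of melanocytes, at -0.36 and -0.79. Among 21 cytoskeleton oligonucleotides, VIM, the intermediate filament vimentin, was at 0.47 and 0.92 (mean 0.70 ± 0.32 SD, n = 2, limma adjusted p = 0.225) and ACTA2, smooth muscle actin, at 0.30 and 0.53. ACTB, cytoplasmic actin, was near 0, at a mean of -0.04, and MYL12A, a myosin light chain, was at -0.33 and -0.41. The list's median was -0.01.

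Of 30 measured oligonucleotides for cytokines, chemokines, interferons and the TNF superfamily, 22 were above 0 (46.9% over all oligonucleotides) and 8 below, with a median of 0.09. At an unadjusted p under 0.05, 2 were higher and 2 lower, against 6.41% and 9.27% of all oligonucleotides. TNFSF4, the ligand of OX40, was at 0.46 and 0.82 and TNFRSF14, a receptor for LIGHT, at -0.54 and -0.30. Of the secreted growth factors and the IGF axis, GNRHR, the receptor for gonadotropin-releasing hormone, was at 0.41 and 0.58 (limma adjusted p = 0.225) and IGFALS, which stabilizes circulating IGF, at -0.26 and -1.03. NF1, which switches RAS off, was at 0.45 and 0.34 and GSK3A, a kinase of the insulin and WNT pathways, at -0.52 and -0.20. In the TGF-beta, BMP, WNT and Notch list 12 of 18 were below 0, against 53.1% of all oligonucleotides, but the median was -0.02 and turned to 0.03 with median centring. LRP6, a WNT co-receptor, was at -0.20 and -0.37. The means of the 11 measured nuclear receptor and retinoid binding oligonucleotides over both arrays lay between -0.20 and 0.22, with a median of -0.03 that became -0.27 with median centring.

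Among chromatin genes, HMGB2, a DNA-bending protein, was at 0.31 and 0.98, and HMGA1, an architectural protein, at -0.53 and -0.31. Apart from HMGB2, the 5 measured oligonucleotides of the list were below 0 on both arrays, against 34.9% of all oligonucleotides. Of these 5, H2BC21 was near 0, at -0.02 and -0.01, and an oligonucleotide of H3-3A (VM_H300007239) was at -0.0066 on EGT array 1. The count depended on the processing. With median centring, 3 of the 6 in the list were below 0 on both arrays and 3 above. In the deposited normalized ratios, 2 were below 0 on both arrays and 2 above. Of 6 measured immediate early and AP-1 oligonucleotides, JUND was at 0.36 and 0.44 (limma adjusted p = 0.225), EGR1 at 0.02 and 0.26 and ATF4, a factor of the integrated stress response, at -0.45 and 0.01. PC, the mitochondrial pyruvate carboxylase, was at -0.54 and -0.87 (mean -0.71, limma adjusted p = 0.225), and TYMS, thymidylate synthase, at 0.16 and 0.41. VDAC1, a channel of the outer mitochondrial membrane, disagreed between the arrays, at -0.26 and 0.74.

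**Figure D4:**
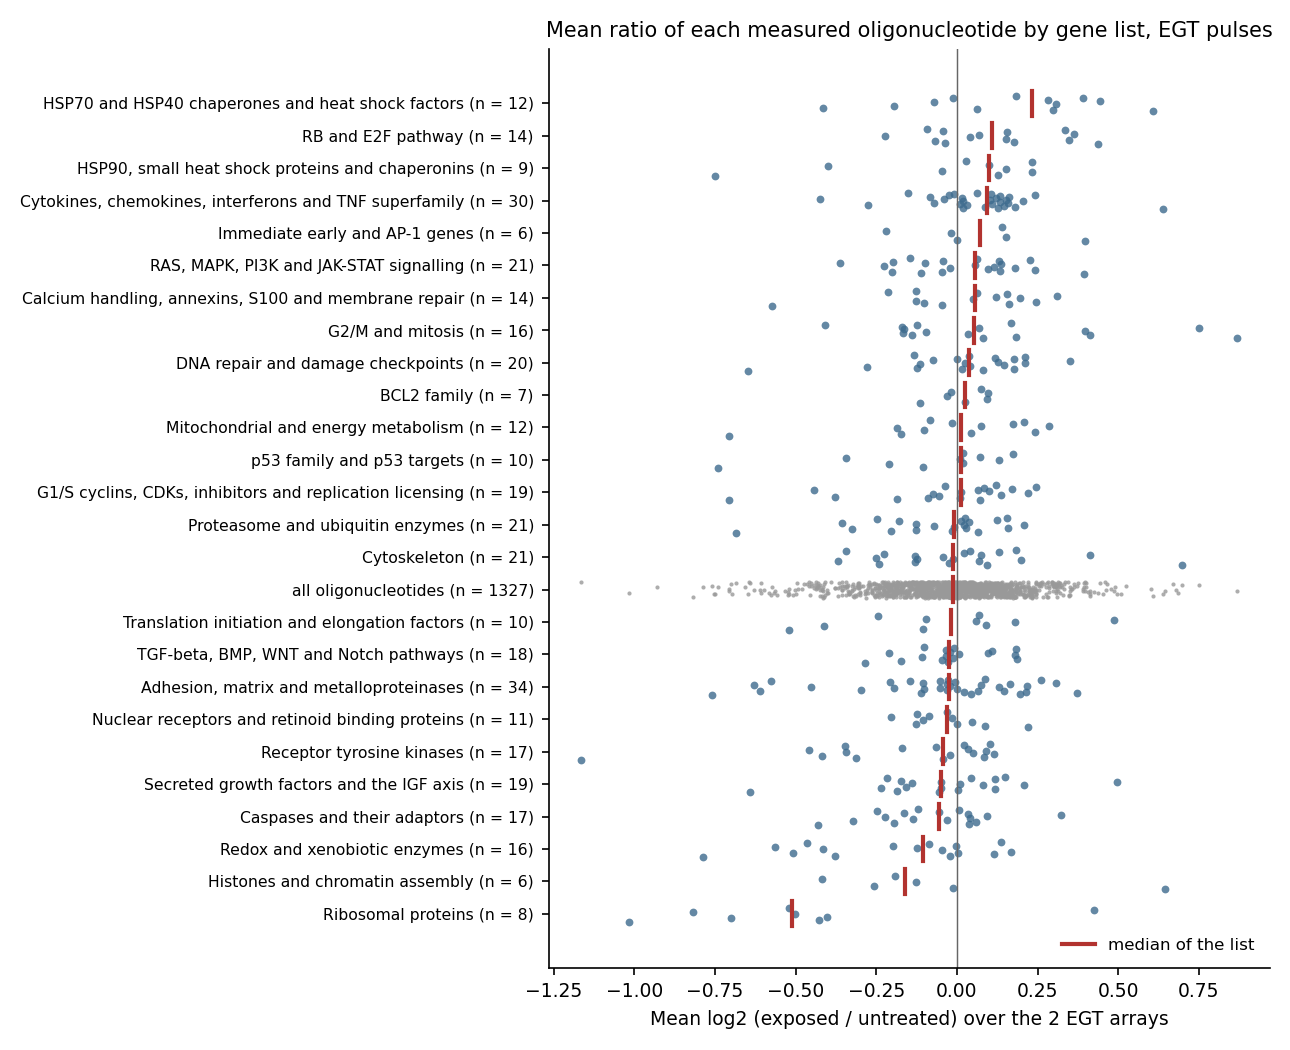
Mean log2 ratio of exposed over untreated cells over the 2 EGT arrays (x axis) for each measured oligonucleotide, by gene list, with the median of each list as a red line and all 1327 oligonucleotides in grey. The medians run between -0.51 for ribosomal proteins and 0.23 for HSP70 and HSP40 chaperones, and most lists centre near the -0.01 of all oligonucleotides.

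The small medians depended on the normalization. With median centring, those of the lists for HSP90 and chaperonins, translation factors, caspases, immediate early genes, adhesion, RAS and MAPK signalling, and TGF-beta and WNT pathways changed sign, while the ribosomal median was -0.66.

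Further large means above 0 belonged to TTYH1, a membrane protein of the tweety family, at 0.82 and 0.55, and to INSM1, a neuroendocrine transcription factor, at 1.16 and 0.19, where EGT array 1 rested on 2 spots. Besides RPL32, TBCA and EEF1A1, the arrays differed most for HINT1, a nucleotide hydrolase, at 0.02 and -1.18, and for ENPP1, an ectonucleotidase, at -0.05 and -1.16. EGT array 2 was the lower of the arrays for all of these except EEF1A1.

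Melanocyte markers did not share a direction. TYRP1, an enzyme of melanin synthesis, was at 0.26 and 0.75 and MITF, the lineage's master factor, at 0.12 and 0.40, while CD63, a melanosome tetraspanin, was at -0.37 and -0.92. Markers of other cell types also gave signal. CD28, a co-stimulatory receptor of T cells, stood 21.01 and 32.71 times above background in exposed cells and 145 and 83.3 times in untreated cells, and was at -0.92 and -0.58 (limma adjusted p = 0.225). CD8A was at -0.54 and -0.35 and CD4 was not well above background, so 2 of 3 lymphoid markers on the array were measured. The epithelial markers KRT19, KRT14, KRT5 and CDH1 were all above background. So were CD14, ITGAM, VWF, KDR and FAP of other cell types, whereas CDH5, TEK and S100A4 were not. In exposed cells KRT19 stood 1238 and 1342 times above background, KRT5 28.1 and 78.9 times and TYRP1 83.1 and 107 times. Signal above background thus does not by itself mark the lineage on this array. Cross-hybridization of these oligonucleotides was not tested.

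Both EGT and ECT pulses were compared with untreated cells, and the difference between them was tested in the same limma fit. The cisplatin label stood on both EGT arrays but on ECT array 2 only, so pulse type and this label are partly confounded here. Of 1164 oligonucleotides measured on all 4 arrays, 0 (0%) passed an adjusted p of 0.05 for EGT minus ECT, with a smallest adjusted p of 0.988, and 31 (2.66%) had an unadjusted p under 0.05. The 3 smallest p in the direction of higher values after EGT pulses belonged to CLCN5, TOP2A and NQO1. NQO1, a quinone reductase induced by oxidants, was at -0.03 and -0.22 after EGT pulses, against -0.90 and -0.60 after ECT pulses, a difference of 0.63 ± 0.17 (SE; limma unadjusted p = 0.00885). CLCN5, an endosomal chloride transporter, was at 0.24 and 0.35 against -0.24 and -0.33, and TOP2A at 0.33 and 0.46 against -0.06 and -0.32. In the other direction CNOT9, a subunit of the deadenylase complex, was at -0.35 and -0.48 after EGT pulses, against 0.27 and 0.26 after ECT pulses. SLC20A2, a phosphate transporter, was at -0.51 and -0.48, against -0.08 and 0.12. These genes were picked for the smallest p of this difference, so the separation of their arrays follows from the choice. None passed the adjusted threshold.

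Of the 8 oligonucleotides past the 1.5-fold rule after EGT pulses, 3 also passed it after ECT pulses, those of CCNF at 0.80 and 0.63, CDC25C at 0.60 and 0.73 and RPL31 at -1.46 and -0.87 on the ECT arrays. RET was at -0.85 and -1.48 after EGT pulses and at -1.50 and -0.33 after ECT pulses. CDK2AP2 was at -0.72 and -0.69 against -0.38 and -0.46, a difference of -0.29 ± 0.14 (SE; limma unadjusted p = 0.0764). HSPA1B was at 0.52 and 0.69 against 0.67 and 0.74, a difference of -0.10 ± 0.14 (SE). The median of the ribosomal proteins was -0.51 after EGT pulses and -0.64 after ECT pulses, and that of the HSP70 list was 0.23 and 0.17. Since untreated SK-MEL28 cells were the reference for both pulse types, these values are given side by side and their likeness was not tested.

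Oligonucleotides seen in 1 colour only were few. On both EGT arrays, 2 were above background in exposed cells only and 41 in untreated cells only, and no bound reached 1.5-fold. The untreated channel also had more spots above background in general, 48.7% and 57.4% on EGT arrays 1 and 2. In the exposed channel it was 44.2% and 49.9%. Whether the uneven counts come from this was not tested. The highest bound was that of EPAS1, a hypoxia-inducible factor, 1.24-fold lower in exposed cells. It is the observed difference between dim signals of the channels.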

How the data were processed

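RNA of exposed cells (Cy5) and of untreated cells (Cy3) was hybridized together on 4 arrays. The deposited scanner files hold median spot intensities and local backgrounds on a linear scale. In the deposited table of log2 ratios the authors had removed bad spots, applied LOWESS and taken the median of replicate spots, and it served as an alternative. Log2 ratios from the scanner files correlated with it at 0.909 and 0.952 on the EGT arrays, which settled the direction.

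In R 4.3.3 with limma 3.58.1, background was corrected by normexp with an offset of 50, without spots whose background exceeded 1000. A spot was kept if both channels were at least 2 times background and at most 65000, with a CV of at most 0.3. Loess used a span of 0.3 and 4 iterations, and at least 2 kept spots gave an oligonucleotide's median. The rule of 1.5-fold on both arrays follows the study's methods, which name no test. EGT against 0 and EGT minus ECT were tested by lmFit and eBayes over all 4 arrays, with Benjamini-Hochberg adjustment over all oligonucleotides measured. The number of arrays limits the precision.

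The text names, by rule, oligonucleotides past the fold rule or next to it, the 5 largest means in each direction, the 5 smallest p, up to 4 members of each list, the 5 largest gaps between arrays and the extremes of EGT minus ECT. Further list members and markers were chosen after their values were seen, and the members and 25 lists with earlier results of these data known. Symbols came from the platform's annotation and all 1989 matched RefSeq. The steps were run on simulated data with known changes. The simulated dye bias did not vary with intensity, so that run does not bear on the choice of normalization.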

Additional observations from a re-analysis of the deposited data

How the results depend on the processing

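The count of 0 oligonucleotides past an adjusted p of 0.05 became 92 with median centring, 9 in the deposited table and 41 with the replicate number as a block. It was 0 with the EGT arrays alone and under the other settings that kept all 4 arrays. With 1 ECT array left out, the test for EGT equals that of the EGT arrays alone, because a single array adds no spread. Same-numbered EGT and ECT arrays deviated in opposite directions (r = -0.444 over 1164 oligonucleotides). With 2 arrays per pulse type the crossed arrays then mirror this (r = 0.444). The labels state no pairing, so whether either pairing is real cannot be told. The main fit used none. The crossed pairing, chosen after seeing the data, gave 0 calls. The count of 8 past the 1.5-fold rule became 2 with the spots of high background kept, 22 with plain background subtraction, 13 with no background correction, 16 with a normexp offset of 0, 32 with median centring, 14 with a loess span of 0.7 and 14 in the deposited table. It was 20 at 1.4-fold and 3 at 1.6-fold. With 1 EGT array left out it lay between 18 (without EGT 2) and 72 (without EGT 1), since a single array then had to pass. The 2 with a mean of at least 2-fold became 0 with the spots of high background kept, 5 with subtraction, 1 with the mean of spots and 6 with median centring, and lay between 1 and 12 with 1 EGT array left out. The causes were not tested. Of the 8, 4 still passed with the mean of spots and 6 with median centring and in the deposited table. None of the 8 changed sign under any setting. With 1 EGT array left out this follows from the rule that chose them, and that rule also placed them far from 0. Of the 112 oligonucleotides named, the means of TP53I3 (VM_H300018995), BCL2A1, HSP90AB1 and EEF1A1 (VM_H300022640) changed sign with median centring, ATF4 without EGT 1 and 8 without EGT 2. The average SD between the EGT arrays moved by less than its own spread over oligonucleotides, and EGT minus ECT gave 0 calls throughout. Exposed cells were only 1.69 and 2.20 times above background in the median spot, and only 1327 of 3048 oligonucleotides were measured on both arrays, so differences of dim genes were not detectable here.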
